A study of Mus musculus with 3 samples.

Results

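Crosslinks of the splicing regulator Tra2β to RNA of the Cfap genes were analysed in adult mouse testis. The Cfap genes (cilia and flagella associated proteins) were taken as all protein coding genes of the GENCODE vM39 annotation whose symbol starts with Cfap and a number, which gave 48 of 21770 genes, with Cfap20dc, Cfap97d1 and Cfap97d2 among them. The study had mapped endogenous Tra2β by iCLIP (individual-nucleotide resolution crosslinking and immunoprecipitation) in wild type adult testes, with a polyclonal antibody, and had deposited 3 biological replicate libraries of this 1 group. The labels give the cell type as mixed and describe total testes broken up by mincing, while the study's methods speak of germ cells set free in that step before irradiation. Mice of the study were kept on a C57BL/6J background, and no age in weeks is stated for these samples. No library from tissue without Tra2β, with another antibody or of input RNA was analysed here, so each comparison was made within a library, between regions of the same gene or between the Cfap genes and the other 21722 protein coding genes.

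In iCLIP, RNA and the proteins bound to it are joined by ultraviolet light, the protein of interest is immunoprecipitated, and cDNA synthesis tends to end at the joined nucleotide, so that each cDNA end marks a contact. Each unique cDNA is counted here as 1 crosslink. Tra2β is an SR-like protein that binds purine rich RNA with GAA repeats and is known for activating exons from within. The sperm flagellum is built on an axoneme, a ring of doublet microtubules around a central pair, along which dynein arms pull. Cfap proteins sit in all of its parts. Some line the inside of the doublets, some form the central apparatus, some anchor or tether the dynein arms and radial spokes, and a few act in the cytoplasm in the assembly of dynein arms. They are made mostly in spermatids in the testis and in multiciliated cells elsewhere, and loss of Cfap43, Cfap44, Cfap65 or Cfap69 is a known cause of malformed sperm flagella.

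Total depth was 348033, 619571 and 488719 crosslinks in replicates 1, 2 and 3. A count of 0 in a gene allows up to 3 crosslinks, which is 8.62, 4.84 and 6.14 CPM (crosslinks per 1000000 crosslinks of the library) in the same order, and these limits and the intervals below cover counting error only. All 7 germ cell markers listed were crosslinked, from 90 crosslinks in all for Sycp3 to 560 for Ddx4, as were 2 of 3 Sertoli cell markers and 3 of 3 Leydig cell markers at 15 to 110 crosslinks, while the heart gene Myh6 had 2 and the Sertoli gene Amh and the liver and pancreas genes Alb and Ins2 had 0. Replicate 2 stood apart, with the lowest exon share of the 3 libraries in the Cfap genes and in all other genes. Crosslinks per gene depend on how much of an RNA is present as well as on how often it is bound, and these cannot be told apart here, nor can fewer cells of a type from less RNA per cell.

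The exons that the results turn on are shown first, with every GAA in capitals. They are internal exons of which all bases shown are coding, read from GRCm39 on the sense strand, 5′ to 3′. The first 4 were called denser in crosslinks than the other exons of their transcript and also denser than its other internal exons alone.
Cfap298 exon 3, chr16:90726804-90726871, minus strand: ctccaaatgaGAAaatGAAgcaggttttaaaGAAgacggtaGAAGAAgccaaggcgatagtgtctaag
Cfap69 exon 2, chr5:5707788-5707847, minus strand: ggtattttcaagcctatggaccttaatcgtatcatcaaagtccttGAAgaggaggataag
Cfap210 exon 5, chr2:69608404-69608560, minus strand: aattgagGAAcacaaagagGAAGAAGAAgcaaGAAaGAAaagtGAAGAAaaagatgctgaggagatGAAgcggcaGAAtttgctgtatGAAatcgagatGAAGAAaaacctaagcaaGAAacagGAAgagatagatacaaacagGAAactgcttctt
Cfap43 exon 18, chr19:47766833-47766916, minus strand: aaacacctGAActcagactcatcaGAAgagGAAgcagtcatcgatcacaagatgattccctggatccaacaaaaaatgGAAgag
The next 4 were called against all other exons of the transcript, and the 68-nt exon of Cfap418 is shown because it is the 1 called exon without a GAA.
Cfap36 exon 6, chr11:29179908-29179959, minus strand: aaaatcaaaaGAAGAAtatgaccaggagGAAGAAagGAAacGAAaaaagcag
Cfap44 exon 28, chr16:44280510-44280705, plus strand: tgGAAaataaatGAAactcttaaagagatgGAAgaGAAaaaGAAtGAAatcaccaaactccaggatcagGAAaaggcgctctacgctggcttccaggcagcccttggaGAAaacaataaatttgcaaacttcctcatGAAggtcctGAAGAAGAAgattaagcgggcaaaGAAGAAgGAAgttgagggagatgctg
Cfap161 exon 2, chr7:83443204-83443293, minus strand: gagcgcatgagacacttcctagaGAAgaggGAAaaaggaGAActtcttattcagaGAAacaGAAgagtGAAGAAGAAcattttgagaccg
Cfap418 exon 3, chr4:10881801-10881868, plus strand: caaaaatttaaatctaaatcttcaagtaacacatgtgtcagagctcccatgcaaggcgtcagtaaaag

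GAA is common in exons, so the counts need a background. Among internal exons tested in all genes whose length was within 10% of the exon in question, 96.8% held a GAA for Cfap210 exon 5 and 83.2% for Cfap69 exon 2. Cfap210 exon 5 holds 16 GAA in 157 nt, and 0.1% of 8437 exons of like length held as many. Cfap44 exon 28 holds 15, a count reached by 0.8% of 5534 exons of like length. Cfap36 exon 6 holds 6 in 52 nt (1.5% of 1580 exons), Cfap161 exon 2 holds 8 in 90 nt (1.7% of 6708) and Cfap298 exon 3 holds 5 in 68 nt (9.0% of 3320). At the other end, Cfap43 exon 18 with 4 GAA was matched by 27.2% of exons of like length, and Cfap69 exon 2 with 1 by 83.2%. The called exons thus ran from GAA dense to GAA poor.

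Tra2β crosslinks were found on nearly every Cfap gene. In exons and introns of the canonical transcripts together, the 48 genes held 10431 crosslinks, 2570, 3822 and 4039 in replicates 1, 2 and 3, which is 0.738%, 0.617% and 0.826% of the libraries. Every gene had at least 3 crosslinks, 47 had a crosslink in all 3 libraries, and the median was 107.5. The median Cfap gene had 73.3 CPM, against 3.94 CPM for the other protein coding genes, of which 25.1% had no crosslink at all. The canonical transcripts of the Cfap genes have a median exonic length of 2799 nt, against 2915.5 nt in other genes, but longer introns, with a median sum of 32963 nt against 13047 nt, and a median of 9 exons against 7. Divided by exonic length, the median Cfap gene had 10.99 CPM per kb and the median other gene 0.408. By this exonic density 19 Cfap genes were among the first 1000 of 21770, and 47 were in the upper 50% of genes.

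**Figure D1:**
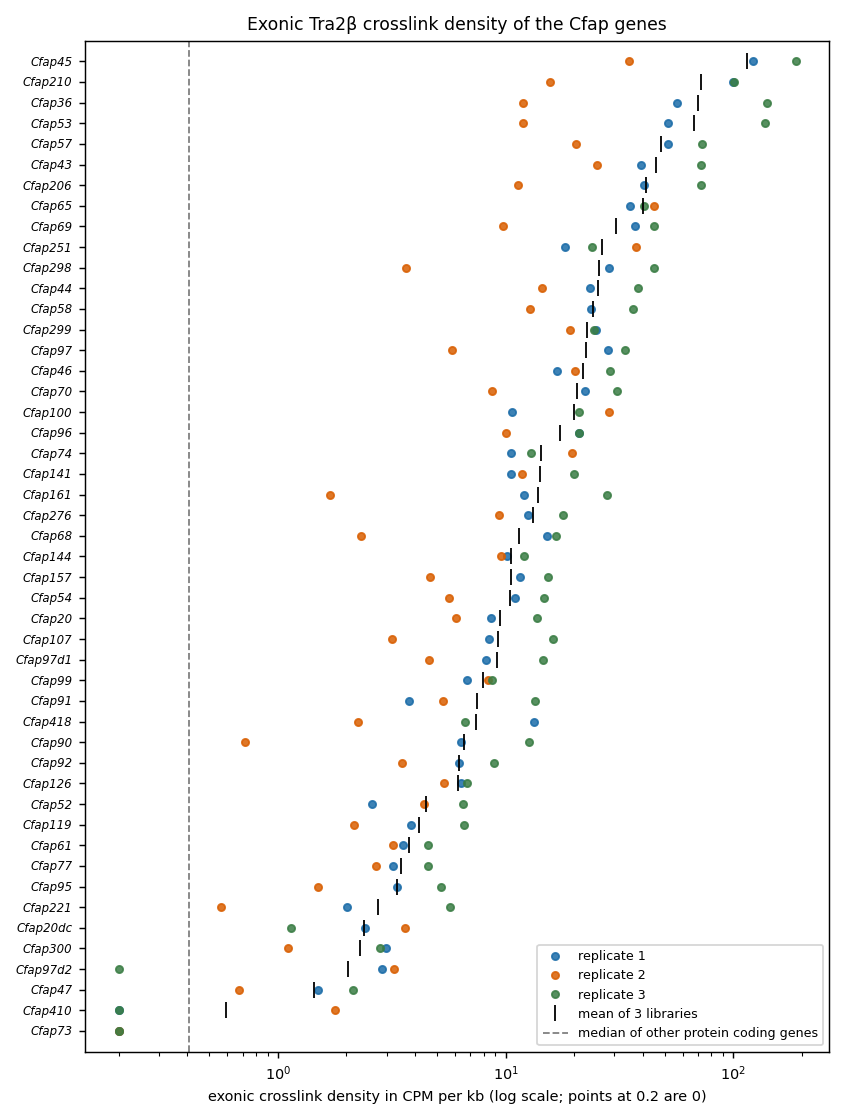
Exonic crosslink density in CPM per kb (log axis) of the 48 Cfap genes, ordered by the mean, with 1 point per library, a tick at the mean and a dashed line at the median of other protein coding genes (0.408), libraries without a crosslink being drawn at 0.2. In most genes replicate 2 lies lowest and replicate 3 highest, Cfap45 leads with a mean of 114.8, and Cfap410 and Cfap73 lie at the bottom.

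By exonic density Cfap45, Cfap210, Cfap36, Cfap53 and Cfap57 led. Cfap45, which lines the lumen of the doublet, had an exonic density of 122, 34.7 and 188 CPM per kb in replicates 1, 2 and 3, a mean of 114.8 ± 76.7 (SD, n = 3) and the 64th highest of all genes. Cfap210, another inner protein, followed with 99.5, 15.7 and 100.8, and Cfap53, an inner protein also needed for left-right body asymmetry, had 51.7, 11.97 and 138. Each of these was lowest in replicate 2, and their order among each other lies within the spread of the libraries. Cfap36, which has a domain like that of the Arl2 and Arl3 binding protein BART, had 56.5, 11.95 and 141. Cfap57, required for a subset of inner dynein arms, had 51.5, 20.5 and 72.8.

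The 4 genes named above for malformed sperm flagella, chosen as examples and not a full list, lay in the upper range too. Cfap43, a part of the tether of the inner dynein arm f, had an exonic density of 39.5, 25.2 and 72.0. Its partner Cfap44 had 23.5, 14.4 and 38.2. Cfap65 of the central apparatus had 35.1, 44.8 and 40.4, the most even of these genes, and Cfap69, also of the central apparatus, had 37.0, 9.73 and 44.8. Each of the 4 was above 0.408, the median of other genes, in every library. Nearly all Cfap genes had means above that median, so this does not set the 4 apart.

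Replicate 2 was the lowest library in exonic density for 25 of the 32 Cfap genes with at least 20 exonic crosslinks (78.1%), and for 77.0% of 3640 other genes with as many. Cfap65, Cfap74, Cfap251 and Cfap100 were the 4 of 32 Cfap genes (12.5%) in which replicate 2 was highest, against 8.74% of the other genes. Their exonic counts were 70, 159 and 113 for Cfap65, 21, 69 and 36 for Cfap74, 31, 113 and 57 for Cfap251, and 9, 43 and 25 for Cfap100.

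Ranked by all crosslinks, introns included, the order was different. Cfap299, a testis expressed gene spanning 471855 nt of intron, had 777 ± 333 CPM (SD, n = 3), rank 36 of all protein coding genes, but its exonic counts were 8, 11 and 11 and its intronic counts 229, 700 and 235. Cfap43 followed with 524 ± 180 CPM, the central apparatus genes Cfap54 and Cfap46 with 425 ± 68.8 and 420 ± 86.2, and Cfap61, a base protein of a radial spoke, with 386 ± 69.7. Next came Cfap36 with 367 ± 310, Cfap69 with 360 ± 125, Cfap65 with 330 ± 26.9, Cfap57 with 295 ± 95.9 and Cfap44 with 271 ± 98.6. Neighbours in this order differed by less than the larger of their SDs.

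At the low end, 4 genes had fewer than 20 crosslinks and were not tested. Cfap144 had 19 in all and Cfap126, a doublet inner protein also called Flattop, had 15. Cfap410, known from retinal and skeletal ciliopathies, had 5, all in replicate 2. Cfap73, which forms a complex with Cfap100 at the base of an inner dynein arm, had 1 intronic crosslink in each library and no exonic one, while Cfap100 had 193 in all. Cfap141 had 34 crosslinks, but its exons lie wholly within exons of another gene on the same strand, so its exonic crosslinks cannot be assigned to it alone.

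Exons were compared with introns per nt of length to see where on these RNAs Tra2β lay. Of the 44 Cfap genes with at least 20 crosslinks, 38 (86.4%) were called denser in exons than in introns and 0 were called denser in introns, also at an unadjusted p of 0.05 and with DESeq2 (edgeR quasi-likelihood test on counts with library as a term, Benjamini-Hochberg over 6907 genes). Over all genes tested 72% were called denser in exons and 0.362% denser in introns. Among the 38 was Cfap141 (adjusted p 0.0403), whose exonic crosslinks cannot be assigned to it alone. At a minimum of 50 crosslinks 91.4% of Cfap genes and 83.4% of all genes were called denser in exons. At a minimum of 10 the shares were 84.8% and 58.8%. The median log2 ratio of exon over intron density was 3.16 in the Cfap genes and 2.46 in all genes tested. Without replicate 3, the library with the highest exon share, 21 of 44 (47.7%) were called, against 31.4% of all genes. In 41 of the 48 genes exons were denser than introns in each of the 3 libraries, a count that was not made over all genes. Cfap53 had the highest ratio, with 34, 14 and 127 exonic and 13, 21 and 19 intronic crosslinks over 75009 nt of intron, a log2 ratio of 6.55 ± 0.76 (SE, adjusted p 3.1e-06).

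**Figure D2:**
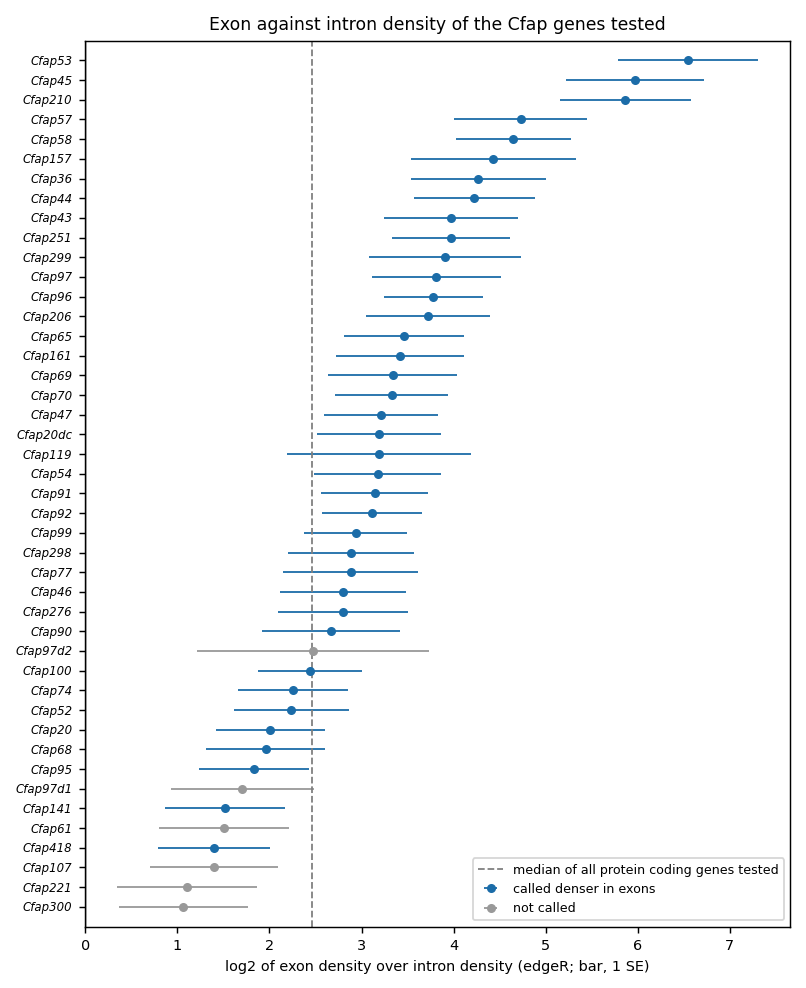
The log2 ratio of exonic over intronic crosslink density, with 1 SE, in the 44 Cfap genes tested, and a dashed line at the median over all genes tested (2.46). All ratios are above 0, from 1.06 in Cfap300 to 6.55 in Cfap53, and 6 genes in grey were not called.

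The 6 genes not called were Cfap61, Cfap107, Cfap221, Cfap300, Cfap97d1 and Cfap97d2, all with log2 ratios above 0 over the 3 libraries. Cfap61 had 5, 8 and 9 exonic and 155, 225 and 148 intronic crosslinks, a log2 ratio of 1.505 ± 0.70 (adjusted p 0.0591). Cfap221, a protein of the central apparatus, had 2, 1 and 8 exonic crosslinks against 36, 66 and 25 in introns, a log2 ratio of 1.103 ± 0.76 (adjusted p 0.191), which was -0.41 without replicate 3 and 2.01 without replicate 2, neither of them called. Cfap107, an inner protein, moved likewise, from 1.395 to 0.39 without replicate 3 (not called) and 2.27 without replicate 2 (called). Cfap300, which acts in dynein arm assembly, had 3, 2 and 4 against 8, 13 and 8.

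The exon share, the percentage of a gene's crosslinks that fall in exons, spread widely between genes. Over the 48 genes together it was 41.6%, 28.6% and 57.8% in replicates 1, 2 and 3 (95% Clopper-Pearson intervals 39.7 to 43.5, 27.1 to 30.03 and 56.3 to 59.3), and in the other genes 43.1%, 26.8% and 55.6%. Cfap genes and other genes thus differed by a few percentage points while the libraries differed far more. Among Cfap genes with at least 50 crosslinks, Cfap45 had the highest share, 85.3%, 69.5% and 91.6%, followed by Cfap36 with 74.6%, 65.3% and 87.6% and Cfap210 with 87.7%, 52.9% and 85.05%. Cfap298, an assembly factor of dynein arms, had 83.3%, 38.1% and 90.7%, and Cfap65 had 66.7%, 72.3% and 69.3%. The lowest shares were those of Cfap299, with a mean of 3.13% ± 1.48, Cfap61 with 4.10% ± 1.42, Cfap221 with 10.3% ± 12.2, the inner protein gene Cfap77 with 10.5% ± 6.69 and Cfap20dc with 12.2% ± 4.46 (SD, n = 3). The introns of Cfap299, Cfap61, Cfap77 and Cfap20dc add up to 471855, 276228, 126328 and 232368 nt, and all of these genes but Cfap61 were called denser in exons per nt.

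Within exons the crosslinks were mostly in coding sequence (CDS). CDS held 88.4%, 95.1% and 86.0% of the exonic crosslinks of Cfap genes in replicates 1, 2 and 3, against 75.9%, 81.4% and 77.7% in other genes. The 3′ UTR held 7.76%, 2.93% and 9.64%, against 19.4%, 14.1% and 17.5%. These shares also depend on how long the regions are. Per kb, CDS over 3′ UTR was 3.73, 10.6 and 2.92 in Cfap genes and 3.70, 5.48 and 4.20 in other genes, with no constant order between the sets. In CPM per kb, the CDS of Cfap genes had 24.9, 15.4 and 37.7, and that of other genes 5.82, 2.98 and 8.40, a ratio of 4.28, 5.17 and 4.49. For introns the ratio was 3.41, 3.53 and 3.23. For the 3′ UTR the ratio was 4.25, 2.66 and 6.45. Cfap genes were thus denser than the pooled other genes in every region and library, and with 3 libraries a two-sided sign-flip test cannot give a p below 0.25, so none was run.

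**Figure D3:**
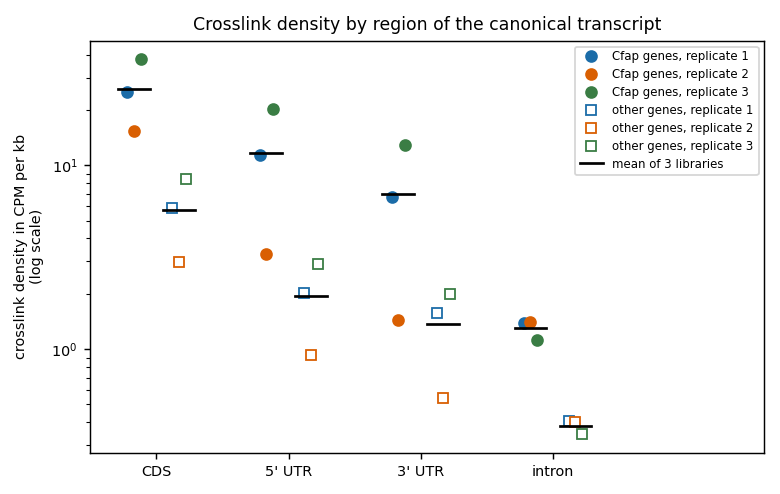
Crosslink density in CPM per kb (log axis) in CDS, 5′ UTR, 3′ UTR and introns, pooled over the 48 Cfap genes (filled circles) and over the other protein coding genes (open squares), with 1 point per library and a line at the mean. In both sets CDS is densest and introns least dense, with means of 26.0 and 1.30 in the Cfap genes and 5.73 and 0.383 in the other genes.

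By role, the counts called in the exon over intron test were read against the 72% called among all genes tested, and no difference from that share was tested. Of 9 central apparatus genes 8 were called, and of 14 microtubule inner proteins tested 13, with Cfap141 among them. Of 8 genes of the dynein tether, inner arm and spoke base tested 7 were called. Of the 2 dynein arm assembly factors 1 was called, and of 11 other Cfap genes tested 9. Median log2 ratios were 3.19, 2.73, 3.85, 1.98 and 3.19 in the same order. The median exonic density was highest at the dynein tether, inner arm and spoke base, 25.4 CPM per kb, and 14.4, 10.99, 13.996 and 8.55 in the central apparatus, the inner proteins, the assembly factors and the other Cfap genes. The inner proteins had the widest range, from 3.34 in Cfap95 to 114.8 in Cfap45.

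Axonemal genes without a Cfap name were set beside them and against the same 72% of all genes. Of 9 radial spoke genes tested 7 were called denser in exons, of 9 genes of the nexin-dynein regulatory complex 8, of 6 other central apparatus genes 6 and of the 2 genes of the axonemal ruler, Ccdc39 and Ccdc40, 2. Rsph1, a radial spoke head protein, had the highest exonic density among them, 136 ± 105 CPM per kb, and Spag17 of the central apparatus had 103 ± 81.8 with exonic counts of 273, 114 and 723. Rsph4a, a spoke head protein, had 0 crosslinks in all 3 libraries.

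Each exon was then compared with the other exons of its transcript, to find exons that stood out within their own RNA. In the 32 Cfap genes with at least 20 exonic crosslinks 599 exons were tested, and 21 exons in 12 genes (3.51%) were called denser, against 2.08% of all 58715 exons tested. A further 8 exons (1.34%) were called less dense, against 1.71% of all exons. The share called denser moved with the minimum of exonic crosslinks per gene. At a minimum of 50 it was 4.17% of 480 Cfap exons, against 3.79% of all exons. At a minimum of 10 it was 2.43% against 1.33%. The 21 were all internal exons and the 8 were all first or last exons. This held in a similar way for all genes, in which 94.8% of the denser exons were internal and 20.03% of last exons, 6.21% of first exons and 0.132% of internal exons were called less dense.

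The last exon, which holds most of the 3′ UTR, is part of what an internal exon was compared with, and its median log2 ratio to the other exons was -0.82 in Cfap genes and -1.18 in all genes. When internal exons were compared only with the other internal exons, 5 of 510 Cfap exons (0.980%) were called denser, against 0.526% of all 41821 exons, and 0 less dense, against 0.203% (edgeR, with 29 at an unadjusted p under 0.05). The 5 were Cfap298 exon 3, Cfap69 exon 2, Cfap210 exon 5, Cfap43 exon 18 and Cfap251 exon 2. Of the 21 denser exons, 2 (Cfap298 exon 3 and Cfap36 exon 6) were called again whichever library was left out, and of the 8 less dense exons 4 (the last exons of Cfap36, Cfap69, Cfap251 and Cfap298). The matching counts over all exons were not made. The number of denser exons was 3, 16 and 2 without replicates 1, 2 and 3 (0.501%, 2.67% and 0.334% of Cfap exons), and over all exons tested 0.167%, 1.63% and 0.235% were called, so the calls fell in all genes.

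Cfap298 exon 3 stood out most. It held 12, 3 and 19 crosslinks in replicates 1, 2 and 3 in 68 nt, while the other 3475 exonic nt held 23, 5 and 59, a log2 ratio of 4.40 ± 0.56 (SE, adjusted p 2.72e-12). Against the other internal exons the log2 ratio was 2.22 (adjusted p 0.00425). At base 27 of the exon, counted from its 5′ end, 5 crosslinks of replicate 1 and 4 of replicate 3 fell on 1 nucleotide, the highest pile in any exon printed here, and replicate 2 had 1 at base 26. Exons 4 and 5 were called denser as well, with log2 ratios of 2.11 and 2.30, but against internal exons alone their ratios were -0.32 and -0.045. The last exon of 2387 nt held 2, 1 and 12.

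In Cfap36, 7 of 10 exons were called denser and the last exon less dense. The last exon is 3079 of the 4323 exonic nt and held 19, 3 and 66 crosslinks while the other 9 had 66, 29 and 232, a log2 ratio of -3.32 ± 0.38 (adjusted p 2.88e-15). Exon 6, shown above, held 7, 7 and 25 in 52 nt, a log2 ratio of 3.24 ± 0.47 (adjusted p 2.06e-09), and exon 4 held 7, 2 and 47, a ratio of 2.27 ± 0.45 (adjusted p 4.77e-05). Against the other internal exons none of the 7 was called, exon 6 having a log2 ratio of 1.34 (adjusted p 0.154). Pooled over the libraries, exons 1 to 9 held from 109.6 crosslinks per kb in exon 1 to 750 in exon 6, and the last exon 28.6. Replicate 3 gave 298 of its 415 exonic crosslinks.

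**Figure D4:**
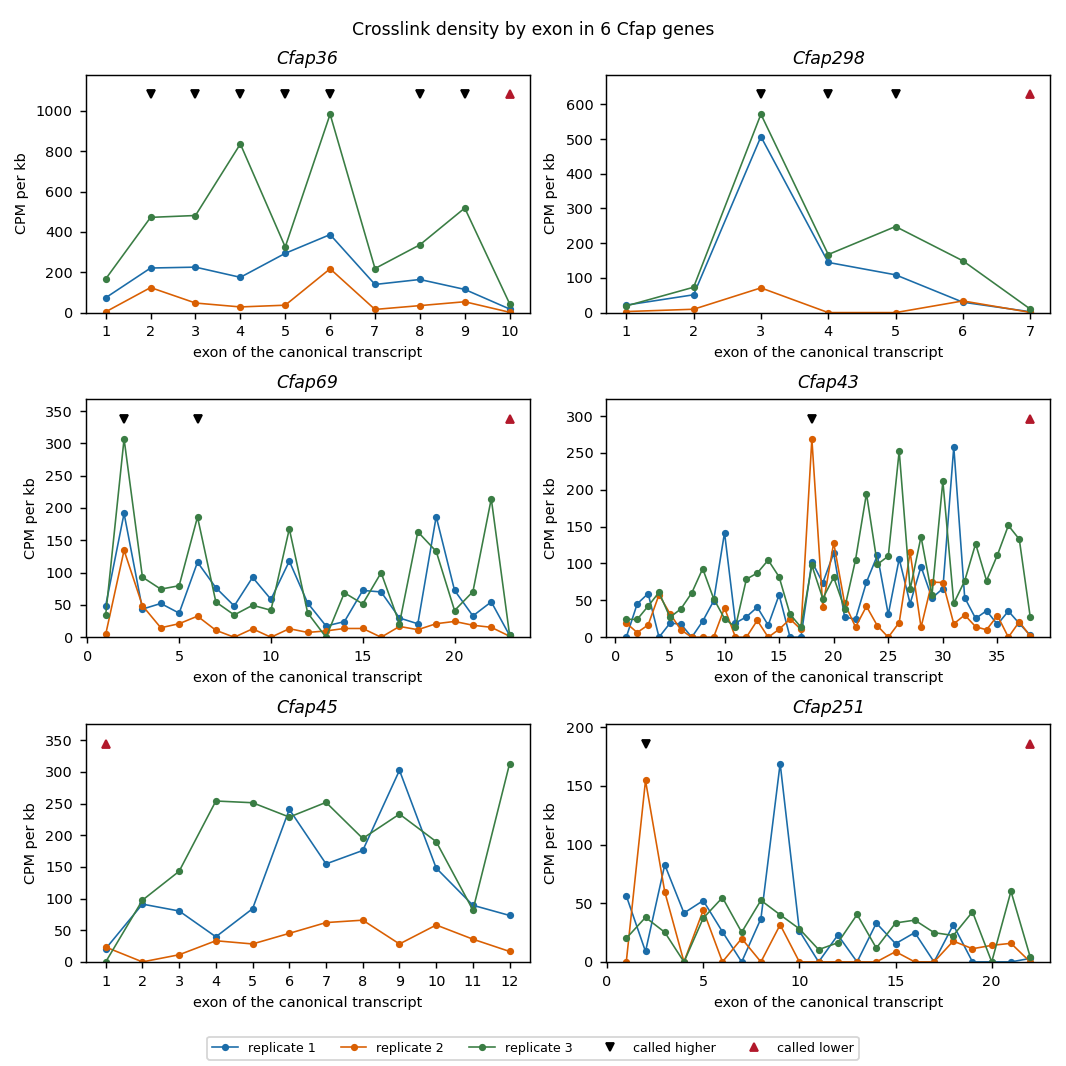
Crosslink density in CPM per kb by exon of the canonical transcript in 6 Cfap genes, with 1 line per library. Black triangles mark exons called denser, and red triangles exons called less dense, than the other exons of the transcript. Cfap298 exon 3 and Cfap69 exon 2 lead in all 3 libraries, Cfap43 exon 18 and Cfap251 exon 2 mainly in replicate 2, and Cfap45 has no exon called denser.

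Cfap69 exon 2 held 4, 5 and 9 crosslinks in 60 nt, against 60, 25 and 100 in the rest of the exons, a log2 ratio of 3.04 ± 0.60 (adjusted p 4.69e-05), and 2.21 against the other internal exons (adjusted p 0.0198). It was the densest exon of the gene in each library although it holds a single GAA. Exon 6 held 4, 2 and 9 in 99 nt, with a log2 ratio of 1.95 ± 0.61 (adjusted p 0.0385). The last exon of 2089 nt held 2, 2 and 3, a log2 ratio of -4.24 ± 0.55 (adjusted p 1.32e-11).

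Cfap210 exon 5, with its 16 GAA, held 16, 5 and 19 crosslinks in 157 nt against 48, 13 and 72 in the rest, a log2 ratio of 1.73 ± 0.46 (adjusted p 0.00743). Taken singly, the 3 libraries gave 1.87, 2.13 and 1.53. Cfap44 exon 28 held 4, 10 and 9 in 196 nt, a log2 ratio of 1.85 ± 0.51 (adjusted p 0.0112). Cfap161 exon 2, in a microtubule inner protein, held 3, 0 and 10 in 90 nt (3.19 ± 0.81, adjusted p 0.00448), and Cfap100 exon 7 held 1, 8 and 6 in 81 nt (2.78 ± 0.71, adjusted p 0.00452).

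A pair of calls rested on replicate 2. Cfap251, a protein of the calmodulin and spoke associated complex, has a purine rich exon 2 of 971 nt (87.3% purine) that held 3, 93 and 18 crosslinks. The other exons had 28, 20 and 39. Its log2 ratio was 1.85 ± 0.44 (adjusted p 0.00146), but singly the libraries gave -1.02, 4.20 and 0.91, and without replicate 2 the ratio was 0.31 (adjusted p 0.903). Cfap43 exon 18 held 3, 14 and 4 in 84 nt, a log2 ratio of 2.08 ± 0.52 (adjusted p 0.00344), which was 0.79 without replicate 2 (adjusted p 0.903).

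**Figure D5:**
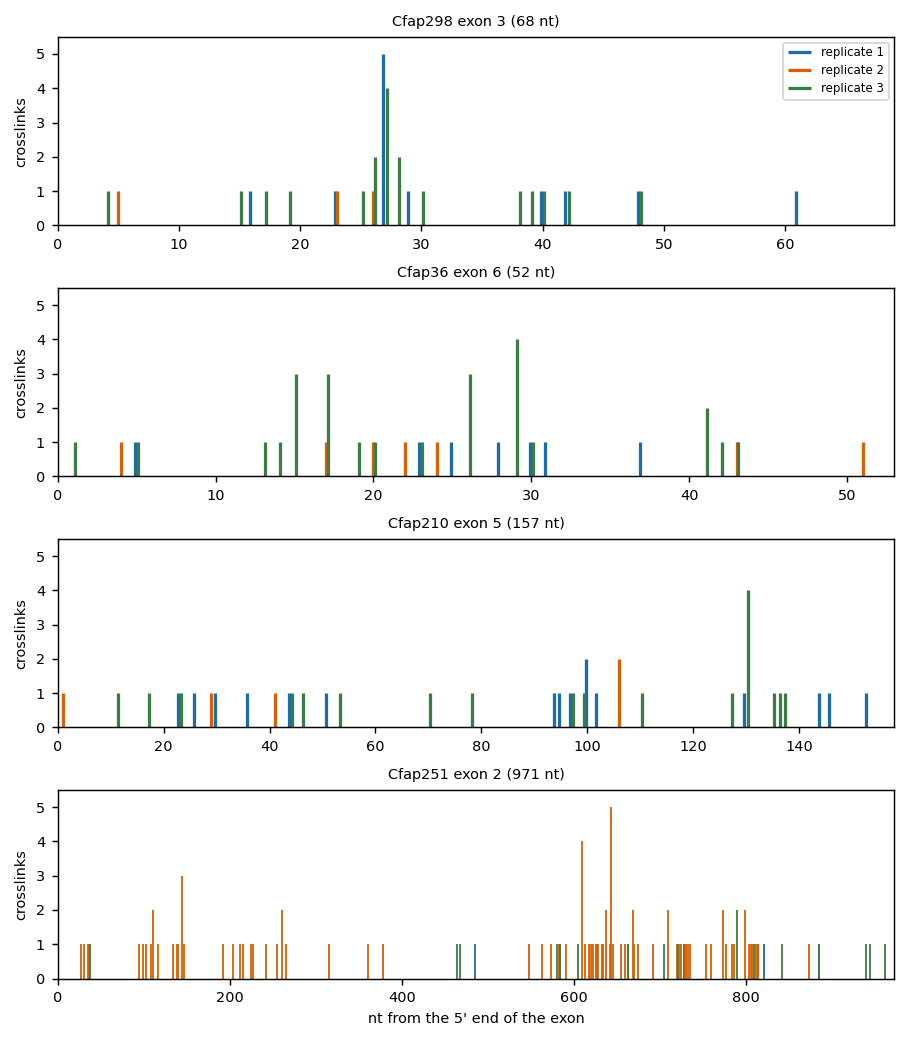
Crosslinks per nucleotide along 4 exons, by distance in nt from the 5′ end of the exon, with 1 colour per library. Cfap298 exon 3 has a pile at base 27 from replicates 1 and 3, Cfap36 exon 6 and Cfap210 exon 5 have crosslinks from all libraries spread over the exon, and Cfap251 exon 2 is filled mainly by replicate 2.

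The remaining denser exons had few crosslinks. Cfap299 exon 2 held 5, 6 and 4 in 131 nt, 15 of the 30 exonic crosslinks of this gene (log2 ratio 2.56 ± 0.76, adjusted p 0.0262). Cfap95 exon 3, in an inner protein, held 2, 1 and 3, and Cfap418 exon 3, in a gene known for photoreceptor degeneration, held 2 in each library, with adjusted p of 0.0289 and 0.0376. Among exons called less dense, exon 1 of Cfap100, of 465 nt without CDS, had no crosslink in any library (adjusted p 0.00217), and exon 1 of Cfap45 held 1, 2 and 0 in 138 nt. The last exon of Cfap43 held 1, 1 and 14 in 1031 nt (log2 ratio -2.44 ± 0.48, adjusted p 4.21e-05). Without replicate 3 its ratio was -4.12 (adjusted p 0.0165), and without replicate 1 it was -2.25 and no longer called (adjusted p 0.237).

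The 21 denser exons had a median length, which the test uses, of 102 nt, against 138 nt for the 535 internal exons tested in Cfap genes. Of measures that the test does not use, the median purine content was 63.1% against 54.0%, and the median number of GAA per 100 nt 5.22 against 3.00. The 1158 internal exons called denser in all genes had similar medians, 129 nt, 61.9% and 5, against 126 nt, 53.9% and 2.63 in the 51567 internal exons tested. These are descriptions, and no test was made of them. Many of the 21 exons lie in Cfap36 and Cfap298, so the medians of the 21 lean on these genes.

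Over all Cfap exons the sequence next to crosslinks was examined with 3 overlapping pentamers of GAA repeats, which are GAAGA, its neighbour shifted by 1 base, AGAAG, and the last of the set, AAGAA. They were searched on the sense strand only. In Cfap genes 54.1%, 67.4% and 53.5% of exonic crosslinks in replicates 1, 2 and 3 had one of them centred within 30 nt, against 49.0%, 56.1% and 48.4% expected from all bases of the same exons. The ratio was 1.104, 1.201 and 1.11. In other genes 43.8%, 52.9% and 43.9% of crosslinks had one, against 38.2%, 40.9% and 39.2%, a ratio of 1.15, 1.29 and 1.12. Of all exonic bases, 34.0% in Cfap genes and 24.4% in other genes had such a pentamer within 30 nt. Over all exonic bases, UTRs included, Cfap genes were thus richer in the pentamers, and a share for CDS alone was not computed. In internal exons tested, the median number of GAA per 100 nt was 3.00 in Cfap genes and 2.63 in all genes. The ratio at the crosslinks over the exon itself was above 1 in 3 of 3 libraries in both sets. In each library it was lower in Cfap genes than in other genes, a difference that was not tested.

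Single nucleotides were rarely hit again. Of the 9912 crosslinked positions in Cfap genes, 188 were seen in at least 2 libraries (1.90%), and 1, in exon 3 of Cfap36, in all 3. In the other genes 1.84% of 819047 positions were shared by at least 2 libraries.

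Introns were compared with the other introns of their transcript in the same way. Of 680 introns tested in 36 Cfap genes, 17 (2.50%) were called denser, against 1.92% of all 75071 introns, and 7 (1.03%) less dense, against 1.32%. At a minimum of 50 intronic crosslinks per gene, 3.00% of 601 Cfap introns were called denser, against 3.12% of all introns. At a minimum of 10 the shares were 2.28% and 1.39%. Of the 17, 4 lay over their whole length within annotated exons of the same strand, namely intron 11 of Cfap65, intron 17 of Cfap69 and introns 9 and 10 of Cfap74. Exons of any gene were used here, and the gene of the exon was not recorded. The share of such introns over all genes was not computed. Intron 5 of Cfap251 and intron 3 of Cfap299 overlap annotated exons in part, which held 10 of 58 and 12 of 804 crosslinks. Intron 9 of Cfap46 (19, 78 and 23 crosslinks in 8909 nt) and intron 20 of Cfap61 (11, 28 and 14 in 7785 nt) were called whichever library was left out, with log2 ratios of 1.72 ± 0.36 (adjusted p 0.000155) and 1.89 ± 0.39 (adjusted p 0.00012). Neither overlaps an annotated exon on its strand. How many introns of all genes were called whichever library was left out was not counted. The number of denser introns was 5, 11 and 4 without replicates 1, 2 and 3, which is 0.735%, 1.62% and 0.588%, against 0.654%, 1.07% and 0.657% of all introns. That of less dense introns was 0, 4 and 1, which is 0%, 0.588% and 0.147%, against 0.344%, 0.563% and 0.320%.

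The largest number of crosslinks in 1 intron was in intron 3 of Cfap299, with 148, 496 and 160 over 239189 nt, a log2 ratio of 1.05 ± 0.29 against the other introns of the gene (adjusted p 0.0148). Intron 2 of Cfap299, with 71, 130 and 53 over 151926 nt, was not called. Intron 15 of Cfap58, a sperm axoneme and midpiece gene, held 20, 40 and 23 (log2 ratio 1.64 ± 0.42, adjusted p 0.00564), intron 5 of Cfap251 held 17, 19 and 22 (1.92 ± 0.40, adjusted p 0.000166) and intron 12 of Cfap57 held 7, 23 and 8 (2.17 ± 0.45, adjusted p 0.000172). Intron 11 of Cfap65 held 11, 6 and 16 in 1727 nt (2.17 ± 0.46, adjusted p 0.000279). The short intron 35 of Cfap46 held 4, 19 and 6 in 1026 nt (2.56 ± 0.49, adjusted p 2.61e-05), and intron 9 of Cfap74 held 4, 8 and 8 in 660 nt (2.92 ± 0.56, adjusted p 2.58e-05).

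In Cfap43, which has a called exon 18, neighbouring introns differed. Introns 19 and 20 held 12, 4 and 16 in 2871 nt and 4, 10 and 5 in 1362 nt and were called denser (log2 ratios 1.62 ± 0.44 and 1.91 ± 0.53, adjusted p 0.0115 and 0.0138), while intron 18, of 2296 nt and next to them, held no crosslink in any library (adjusted p 0.0193). In Cfap69, intron 14 held 0, 1 and 2 in 8234 nt, a log2 ratio of -3.41 ± 0.72 (adjusted p 0.000226), and intron 17 held 9, 5 and 11 in 1841 nt, a log2 ratio of 2.02 ± 0.48 (adjusted p 0.00229).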

How the data were processed

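iCLIP of endogenous Tra2β was performed by the authors in biological triplicate on minced testes of adult wild type mice. The authors processed the reads with the iMAPS pipeline, and the submitters' processing notes name Trim Galore 0.6.7, Bowtie 1.3.1, STAR 2.7.9a and UMI-tools 1.1.2 with build mm39. How reads that map to several places were treated was not given in the sources used here, which bears on genes with near copies. The deposited values were counts of unique cDNAs per crosslinked nucleotide and strand, not scaled and not pooled. All sequence names and positions fitted GRCm39.

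The members, gene lists and tests were chosen with earlier results of these data known. Each crosslink was counted on its own strand in exons and introns of the Ensembl canonical transcript of protein coding genes (GENCODE vM39, 48 Cfap genes). CPM are counts per 1000000 crosslinks of the library, and densities are CPM per kb. Depth was 348033 to 619571 crosslinks per library. The p-values measure how the ratio between the compared regions varied over these 3 libraries, not the spread in level between them. Information on variance was shared over all features tested. Exons against introns, an exon against the other exons and an intron against the other introns were tested with edgeR 4.0.16 (glmQLFit and glmQLFTest, R 4.3.3), with the library as a term and the log of library total times length as offset, in genes with at least 20 crosslinks (in exons for exons, in introns for introns). Benjamini-Hochberg adjustment ran over all features and calls were made at an adjusted p under 0.05. SE is the size of the log2 ratio over the square root of F. Ratios of a single library had 0.5 added to each count. The fits were tested on simulated data, with 200 features changed 4-fold in each of the 3 comparisons (among 6907 genes, 58715 exons and 75071 introns). Of features raised 72%, 47% and 39% were called in the same order. Of features lowered 13%, 3% and 3% were called, so falls in density were mostly missed in this setting. Counts were simulated with a single dispersion for all features and with the same ratio between regions in every library. The exon shares of the real libraries differed, so these rates do not give the power in these data. The changed features were drawn only from those with at least 10 expected crosslinks on each side of the comparison. Exons tested in Cfap genes held a median of 4 crosslinks (quartiles 2 and 8), so recovery at such counts was not measured. Named features were the 10 genes with the highest CPM, the 5 highest and the 5 lowest in exon share among those with at least 50 crosslinks, called exons (up to 20 by crosslinks), the 5 introns with the most crosslinks, introns called denser (up to 10), Cfap43, Cfap44, Cfap65 and Cfap69. Others were named after their values were seen. Alternatives were DESeq2 1.42.0, an exact binomial test in each library, other minimums, references and exon definitions, positions in place of cDNAs, masking of overlapping features, no library term and leaving out each library. Sequences are given for a choice of the called exons, and 1 further sequence is not reported here.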

Additional observations from a re-analysis of the deposited data

How the results depend on the processing

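The number of Cfap genes called denser in exons, 38, was 32 to 39 with other minimums, DESeq2, positions, masking, all transcripts or no replicate block, 22 when an exact binomial test had to pass in each library, and 21 to 37 with 1 library left out. By the exact test 50% of Cfap genes and 32.3% of all genes tested were called. With 1 library left out the shares were 47.7% to 84.1%, against 31.4% to 65.7% of all genes. The 21 denser exons became 20 with DESeq2 but 4 with no replicate block, that is without the library as a term in the fit, 5 against internal exons alone, 2 by the exact binomial test and 2 to 16 with 1 library left out. Called shares of Cfap exons and of all exons were 3.34% and 2.64% with DESeq2, and 0.668% and 0.530% with no replicate block. By the exact test they were 0.334% and 0.164%. Against the rest of the gene, introns included, 259 (43.2%) were called, against 25.9% of all exons. The 8 less dense exons became 4 with no replicate block, 0 among internal exons alone, 0 against the rest of the gene, 3 by the exact test and 4 to 8 with 1 library left out. Shares called were 0.668% against 0.518% of all exons with no replicate block and 0.501% against 0.305% by the exact test. Among internal exons and against the rest of the gene, 0.203% and 0.0783% of all exons were called. Without replicates 1, 2 and 3 the shares were 0.668%, 1.34% and 0.835%, against 0.274%, 1.43% and 0.228%. The 17 denser introns became 1 by the exact test and 4 to 11 with 1 library left out, and the 7 less dense introns 12 with no replicate block, 2 with DESeq2, 0 by the exact test and 0 to 4 with 1 library left out. By the exact test 0.147% of Cfap introns were called denser, against 0.313% of all introns, and 0% less dense, against 0.153%. Less dense were 1.76% against 1.94% with no replicate block and 0.294% against 0.574% with DESeq2. Other settings kept the counts of calls within 1.5 times.

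Directions turned for exons 4 and 5 of Cfap298 (-0.32 and -0.045) and exons 5, 8 and 9 of Cfap36 (-0.20, -0.56 and -0.19) against internal exons alone, and for Cfap36 exon 10 (0.52), Cfap43 exon 38 (0.75), Cfap45 exon 1 (0.76) and Cfap95 exon 6 (0.17) against the rest of the gene, none of them past the threshold there. By construction, these settings leave out the terminal exons or add the introns to the reference. The exon over intron ratio of Cfap221, not called, turned from 1.103 to -0.41 without replicate 3. The summed level of the Cfap genes, 7273 CPM, was 11878 when scaled to the crosslinks of protein coding genes. The pentamer ratio, 1.14 ± 0.06 (SD, n = 3), was 1.199 within 10 nt. In other genes it was 1.19 ± 0.09 within 30 nt and 1.278 within 10 nt. The exon share of the Cfap genes, 42.7% ± 14.6, was 35.1 to 49.7% with 1 library left out.

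Exons tested in Cfap genes held a median of 4 crosslinks (quartiles 2 and 8), so depth limits what single exons can show. The 3 libraries are the same samples on both sides of each test, so the library term is the pairing. Nothing was tested against a control library.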
